A study of Homo sapiens with 6 samples.

Results

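Interleukin-1 (IL1) family cytokines are inflammatory ligands, and 10 genes of that family were followed here among the 58735 genes of the deposited table, chosen by gene name: 6 ligand genes (IL1A, IL1B, IL1RN, IL18, IL33 and IL36G) and 4 receptor genes (IL1R1, IL1R2, IL1RAP and IL1RL1). Of the 10, 7 had enough reads to be tested. Polyadenylated RNA was sequenced in 6 samples of KYSE410, a human line grown out of an oesophageal squamous cell carcinoma and kept in RPMI with serum. The 3 siADAR1 samples have the genotype ADAR1 knockdown, by siRNA as their titles read. ADAR1 edits double-stranded RNA by turning adenosines into inosines. The 3 control samples are titled NC and have the genotype wild type. Both groups have "No" in the treatment field, so no radiation or added cytokine is recorded, and no label says whether controls received an siRNA of their own. In this design, siRNA delivery, off-target siRNA binding and ADAR1 loss cannot be told apart. No label says that samples came from separate cultures, and if they did not, the p-values reflect technical spread between these 6 samples.

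IL-1 alpha, encoded by IL1A, and IL-1 beta, encoded by IL1B, both bind the receptor encoded by IL1R1. The bound receptor recruits the accessory chain encoded by IL1RAP, and the pair signals through MYD88, IRAK kinases and TRAF6 to NF-kB. IL1RN encodes an antagonist that occupies the same receptor without signalling, and IL1R2 encodes a decoy that binds ligand and cannot signal. Squamous epithelial cells are known to hold IL-1 alpha as a stored, active precursor, while the precursors of IL-1 beta and IL-18 need cleavage by caspase-1 and leave the cell through gasdermin pores during pyroptosis, the form of lytic death named in the series title.

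The 4 members that passed the test are shown by the bases before their transcription start, because genes of the family moved in opposite directions. Sequences are 250 bases 5′ to 3′ from RefSeq on GRCh38.p14, ending next to the annotated start, and where RefSeq lists several starts the one nearest to the gene's 5′ end in the deposited table was taken. For all 4 members that start lies inside the gene as the deposited table bounds it, furthest inside for IL1RN, at 113117971. It was 1 of 3 listed for IL1RN and 1 of 2 for IL1A, and which start these cells use was not tested. Capitals mark matches to 4 motifs searched on both strands, none of which overlapped here. The AP-1 motif was spelled TGANTCA. For C/EBP the letters were TTGCNNAA. The core promoter box was searched as TATAAA, and NF-kB by its consensus. The IL1A bases lie at chr2:112784494-112784743 on the minus strand, those of IL1B at chr2:112836780-112837029 on the minus strand, those of IL1RN at chr2:113117721-113117970 on the plus strand and those of IL1RAP at chr3:190513835-190514084 on the plus strand.
IL1A: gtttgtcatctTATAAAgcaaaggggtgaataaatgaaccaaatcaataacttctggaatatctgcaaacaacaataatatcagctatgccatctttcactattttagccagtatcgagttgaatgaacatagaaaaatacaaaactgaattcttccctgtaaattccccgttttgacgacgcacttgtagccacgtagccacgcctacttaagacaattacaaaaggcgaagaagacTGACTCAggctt
IL1B: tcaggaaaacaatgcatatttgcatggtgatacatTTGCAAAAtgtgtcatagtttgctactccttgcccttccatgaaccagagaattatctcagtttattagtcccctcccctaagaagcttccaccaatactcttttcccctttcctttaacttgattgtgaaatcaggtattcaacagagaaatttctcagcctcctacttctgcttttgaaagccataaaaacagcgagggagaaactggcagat
IL1RN: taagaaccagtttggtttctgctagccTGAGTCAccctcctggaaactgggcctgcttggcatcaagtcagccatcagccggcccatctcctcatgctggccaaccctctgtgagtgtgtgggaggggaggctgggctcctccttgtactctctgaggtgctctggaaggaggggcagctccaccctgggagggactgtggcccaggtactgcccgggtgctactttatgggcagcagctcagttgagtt
IL1RAP: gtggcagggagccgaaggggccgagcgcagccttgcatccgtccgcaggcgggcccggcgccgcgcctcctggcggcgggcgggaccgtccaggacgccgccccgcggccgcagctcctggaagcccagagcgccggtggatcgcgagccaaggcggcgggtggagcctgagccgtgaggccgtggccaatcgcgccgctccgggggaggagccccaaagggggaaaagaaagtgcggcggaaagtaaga

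IL1A held an AP-1 match from 12 to 6 bases before its start and a TATA match from 239 to 234 bases before it. IL1RN held an AP-1 match from 223 to 217 bases before its start. IL1B held a single match, to C/EBP, from 215 to 208 bases before its start, and IL1RAP held none. None of these 4 windows held an NF-kB match, and the motifs did not separate the members that rose from those that fell. Over 35114 RefSeq promoter windows of the same length, 6.57% held AP-1, 9.05% C/EBP, 10.7% TATA and 9.96% NF-kB. A match is only a run of letters, and no match says only that these letters are missing from this window. Of the 10 members, 9 were in the promoter table, and IL18 was not.

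Library totals ran from 15175619 to 17329443 counts. ADAR, the knockdown target, stood at 443.6 ± 12.1 CPM (counts-per-million on scaled library sizes) in the control group and fell to 88.7 ± 9.72 CPM with the knockdown (SD, n = 3 each). Both libraries numbered 1 stood apart on the second principal component (12.5% of the variance), at 41.5 for control and 13.3 for siADAR1 against -26.5 to -7.81 for the other 4, so results are also given without them. Such a fit has 2 libraries per group. The libraries left out were picked for standing apart, so a smaller SE there is no gain in precision. The squamous label was checked on 7 markers, whose summed level was 663 to 734 CPM in control and 737 to 806 CPM in siADAR1. KRT14 was at 0 to 2 counts in every library, KRT17, TP63 and DSG3 rose, and KRT5, KRT6A and SFN fell. Of 8 macrophage and monocyte markers, LYZ, AIF1, FCGR3A, MS4A7 and CD163 had 0 counts in every library. The summed level was 0.657 to 0.942 CPM in control and 1.46 to 3.33 CPM in siADAR1. CSF1R, with 1 to 3 counts per control library and 10 to 14 per siADAR1 library, was called higher. CD14 went the other way, from 0.622 to 0.365 CPM, and was not tested. ITGAM, also not tested, had 40 counts in siADAR1 replicate 1 and 0 to 9 in every other library. The 6 fibroblast markers summed to 40.1 to 59.4 CPM in control and 72.3 to 85.0 CPM in siADAR1. Of these LUM and COL1A1 rose, and DCN was at 0 in every library. COL1A2 had 0 to 3 counts per library and COL3A1 0 to 12. PDGFRB stood at 0.946 CPM in control and 0.534 CPM in siADAR1, and it, COL1A2 and COL3A1 had too few reads to be tested. The summed level thus rests on LUM and COL1A1, and the part of such cells in the results was not tested.

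Within the family, IL1A and IL1RAP were higher in siADAR1, while IL1B and the antagonist gene IL1RN were lower. IL1A about doubled, IL1RAP rose to 139% of control, IL1B fell to 59.0% and IL1RN to 31.4%. IL18, IL1R1 and IL1RL1 did not pass the test, and IL33, IL36G and IL1R2 had too few reads. Of the 7 tested members, 2 rose and 2 fell, where 51.0% of all 15294 tested genes were called, 26.0% higher and 25.0% lower, so the share of members called lay near that of all genes. A gene was called at a Benjamini-Hochberg adjusted p below 0.05 in edgeR's quasi-likelihood test. Scaled by library totals alone, which shifts all genes up by 0.118 on the log2 scale, 4892 genes were called higher and 2887 lower against 3973 and 3831, and the same 4 members kept their direction and call. CPM values of the groups did not overlap for 5 of the 7, and for 60.3% of all tested genes. In bulk RNA, fewer cells that express a gene and less RNA per cell cannot be told apart.

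**Figure D1:**
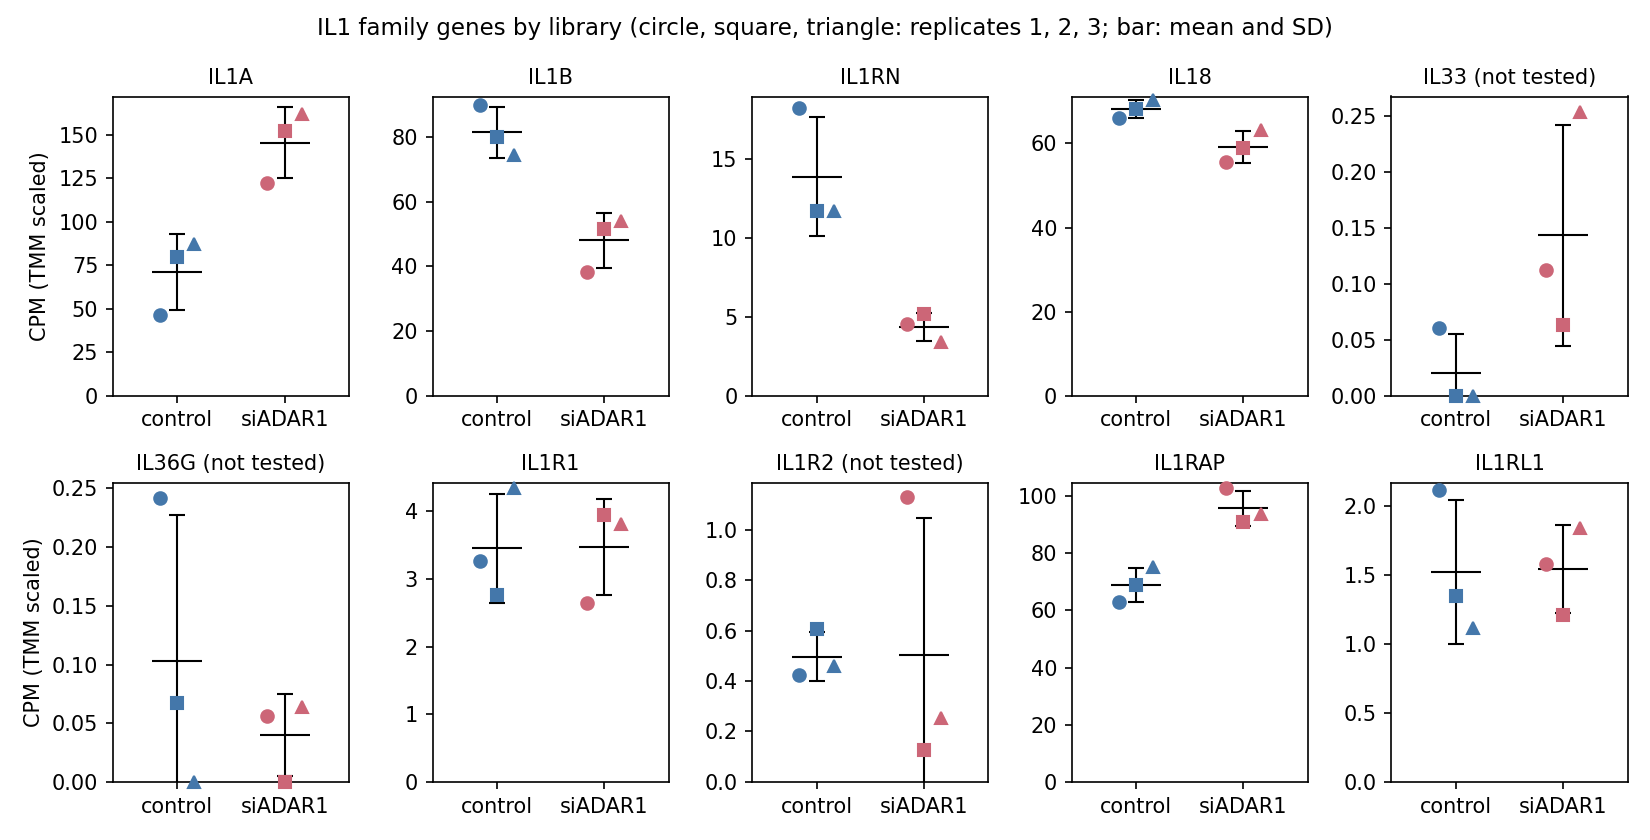
Levels of the 10 IL1 family genes in each library, in counts-per-million on scaled library sizes, with a linear axis from 0 in each panel. Circles, squares and triangles are replicates 1, 2 and 3 and bars are the mean and SD over 3 libraries (cut at 0). The siADAR1 libraries lie above all control libraries for IL1A and IL1RAP, and below them for IL1B, IL1RN and IL18. The IL33 points rest on 0 to 4 counts, with 1 count in both control replicate 1 and siADAR1 replicate 2.

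IL1A (ENSG00000115008, chromosome 2, 112773915 to 112784590, GRCh38) stood at 46.5, 79.8 and 87.4 CPM in control replicates 1 to 3 and at 122, 152 and 162 CPM in siADAR1 replicates 1 to 3. The groups did not overlap, although control replicate 1 was well below the other control libraries. The mean went from 71.3 ± 21.8 to 145 ± 20.5 CPM (SD, n = 3 each), a log2 fold change of 1.03 ± 0.23 (SE) with an edgeR adjusted p of 7.58e-03. Without both libraries numbered 1, with 2 libraries per group, the log2 fold change was 0.91 ± 0.07 (SE).

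IL1B (ENSG00000125538, chromosome 2, 112829751 to 112836903), whose protein is the caspase-1 substrate, went the other way. It stood at 90.0, 80.0 and 74.4 CPM in the 3 control libraries and at 38.4, 51.7 and 54.2 CPM in the 3 siADAR1 libraries. The groups did not overlap, and siADAR1 replicate 1 was the lowest library. The mean went from 81.5 ± 7.87 to 48.1 ± 8.47 CPM (SD, n = 3 each), a log2 fold change of -0.76 ± 0.13 (SE) with an edgeR adjusted p of 3.14e-04. It was -0.55 ± 0.08 (SE) without both libraries numbered 1.

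IL1RN (ENSG00000136689, chromosome 2, 113107214 to 113134016), the receptor antagonist gene, had the largest change among the 7 tested members. It stood at 18.2, 11.7 and 11.7 CPM in control and at 4.51, 5.16 and 3.37 CPM in siADAR1, from 174 to 301 counts per control library and 53 to 81 counts per siADAR1 library. Every siADAR1 library was below every control library, and control replicate 1 was above the other controls. The mean went from 13.9 ± 3.74 to 4.35 ± 0.905 CPM (SD, n = 3 each), a log2 fold change of -1.67 ± 0.23 (SE) with an edgeR adjusted p of 5.25e-05. Without both libraries numbered 1 it was -1.46 ± 0.21 (SE).

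IL18 (ENSG00000150782, chromosome 11, 112143251 to 112164117), which encodes another caspase-1 substrate, stood at 66.1, 68.1 and 70.4 CPM in control and at 55.5, 58.9 and 63.1 CPM in siADAR1. The siADAR1 libraries were all below the control libraries, by a small margin. The log2 fold change was -0.20 ± 0.09 (SE) with a 95% interval of -0.41 to -0.00282, and the edgeR adjusted p of 0.0841 did not pass. It passed without control replicate 1 (log2 fold change -0.24, adjusted p = 0.0483) and on FPKM with a pseudocount of 1 (-0.20, adjusted p = 0.0495), within a range of 0.0483 to 0.454 over 17 alternatives.

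IL33 and IL36G, ligand genes known from other squamous and barrier epithelia, were close to absent at this depth. IL33 (ENSG00000137033, chromosome 9, 6215786 to 6257983), which encodes an alarmin kept in the nucleus, had 1, 0 and 0 counts in control and 2, 1 and 4 in siADAR1. Summed over libraries, 1 count in control stood against 7 in siADAR1, a ratio of 6.64 with a 95% interval from counting error alone of 0.853 to 299. IL36G (ENSG00000136688, chromosome 2, 112973203 to 112985665) had 4, 1 and 0 counts in control and 1, 0 and 1 in siADAR1. A library with 0 counts still allows up to 3 counts, or 0.169 to 0.202 CPM, and no difference between groups was detectable for either gene.

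Among the receptor genes, IL1RAP (ENSG00000196083, chromosome 3, 190514051 to 190659750), the shared accessory chain for IL-1, IL-33 and IL-36 receptors, was the only 1 of the 3 tested that was called. It stood at 63.1, 68.7 and 75.1 CPM in control and at 103, 91.0 and 93.7 CPM in siADAR1. The groups did not overlap, and siADAR1 replicate 1 was the highest library. The mean went from 69.0 ± 6.01 to 95.8 ± 6.10 CPM (SD, n = 3 each), a log2 fold change of 0.47 ± 0.10 (SE) with an edgeR adjusted p of 1.26e-03. Without both libraries numbered 1 it was 0.36 ± 0.08 (SE).

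IL1R1 (ENSG00000115594, chromosome 2, 102064544 to 102179874), the signalling receptor for IL-1 alpha and beta, was low in both groups, with 41 to 66 counts in control libraries and 47 to 62 in siADAR1. It stood at 3.26, 2.76 and 4.34 CPM in control and at 2.65, 3.95 and 3.81 CPM in siADAR1, and the groups overlapped. The log2 fold change was 0.00350 with a 95% interval of -0.58 to 0.59 (edgeR adjusted p = 0.993), which leaves changes of that size in either direction undetected. IL1RL1 (ENSG00000115602, chromosome 2, 102311502 to 102352037), which encodes the IL-33 receptor ST2, stood at 2.11, 1.35 and 1.12 CPM in control and at 1.58, 1.21 and 1.84 CPM in siADAR1. These groups overlapped too, and the 95% interval of the log2 fold change was -0.80 to 0.82. IL1RL1 shares part of its locus and its strand with IL18R1, which had 245 counts summed over control and 342 over siADAR1, so how reads in the overlap were assigned bears on both.

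The decoy receptor gene IL1R2 (ENSG00000115590, chromosome 2, 101991844 to 102028544) was not tested. It had 7, 9 and 7 counts in control libraries and 20, 2 and 4 after knockdown. The siADAR1 libraries disagreed, with replicate 1 above every control library and the other siADAR1 libraries below them. The summed counts of 23 and 26 gave a ratio of 1.07 with a 95% interval from counting error alone of 0.588 to 1.97.

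**Figure D2:**
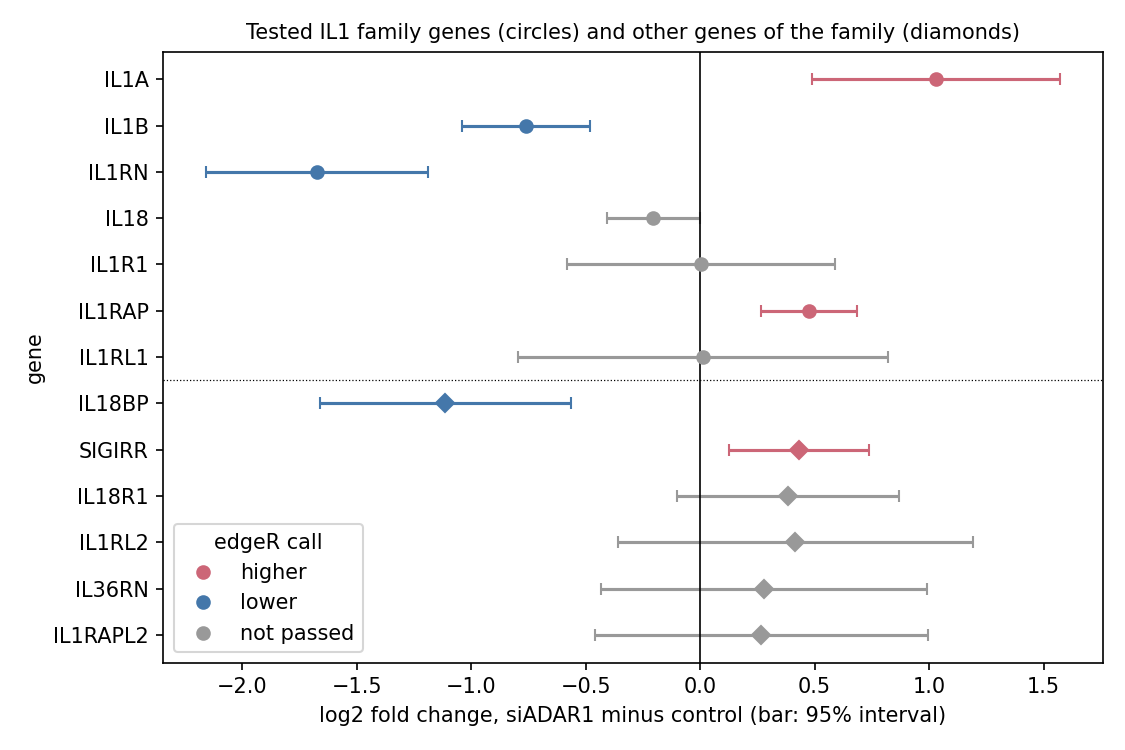
Log2 fold change of each tested gene, siADAR1 minus control, with bars for the 95% interval from the edgeR fit over 3 libraries per group. Circles above the dotted line are the 7 tested members and diamonds below it 6 further genes of the family, with called rises in red, called falls in blue and grey for genes that did not pass. IL1A and IL1RAP lie right of 0, IL1B, IL1RN and IL18BP left of it.

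Levels of different genes were set side by side per length, in the deposited FPKM (fragments per kilobase per-million). In control the order of means was IL1A (33.2 ± 10.2 FPKM), IL1B (26.1 ± 2.49 FPKM), IL18 (25.7 ± 0.838 FPKM), IL1RAP (5.91 ± 0.520 FPKM), IL1RN (4.21 ± 1.13 FPKM) and IL1R1 (0.483 ± 0.113 FPKM), each as mean ± SD over 3 libraries. The library ranges of IL1A, IL1B and IL18 overlapped, as did those of IL1RAP and IL1RN, so those neighbours were not ordered beyond their spread. In siADAR1 the order was IL1A (67.6 ± 9.47 FPKM), IL18 (22.2 ± 1.39 FPKM), IL1B (15.3 ± 2.69 FPKM), IL1RAP (8.18 ± 0.525 FPKM), IL1RN (1.32 ± 0.277 FPKM) and IL1R1 (0.484 ± 0.0992 FPKM), and no neighbouring ranges among these 6 overlapped. IL1A thus stood clear of both other abundant ligand genes in siADAR1. In control its overlap with them came from replicate 1, where IL1A was at 21.7 FPKM. Control replicates 2 and 3 had IL1A at 37.2 and 40.8 FPKM, above every control value of IL1B (up to 28.7 FPKM) and IL18 (up to 26.5 FPKM). IL1RL1, IL1R2, IL36G and IL33 were at 0.364 FPKM or lower in every library, with overlapping ranges between neighbours in both groups.

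**Figure D3:**
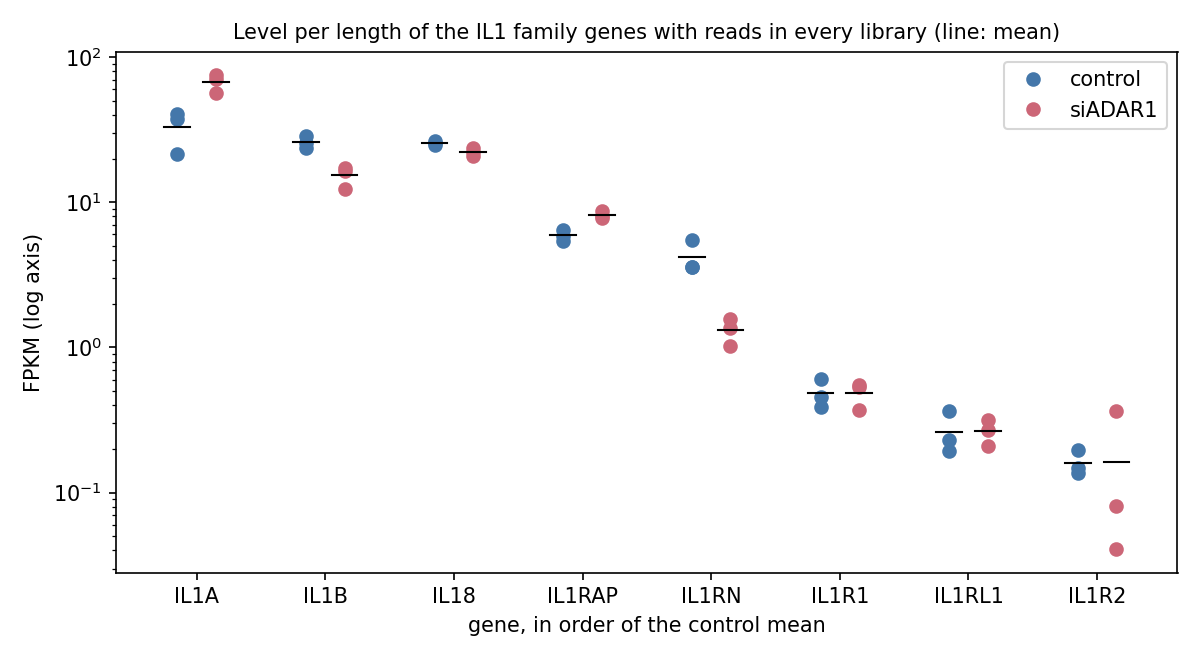
Level per length (FPKM, log axis) of the 8 family genes that had reads in every library, in order of the control mean. Points are libraries and lines are group means over 3 libraries. In control IL1B and IL18 overlap, and IL1A overlaps them through its lowest library, while in siADAR1 IL1A lies above IL18 and IL18 above IL1B.

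Ratios within a library, which do not depend on how libraries are scaled, compared the antagonist with its agonists. Counts of IL1RN relative to IL1A were 0.391, 0.147 and 0.134 in the control libraries and 0.0369, 0.0339 and 0.0208 after knockdown. The groups did not overlap, and the geometric mean ratio in siADAR1 was 0.150 times that in control (log2 difference -2.73). Relative to IL1B, IL1RN was at 0.202, 0.146 and 0.157 in control and at 0.117, 0.0998 and 0.0622 in siADAR1, or 0.539 times control (log2 difference -0.89). Both differences had an exact two-sided permutation p of 0.10, the smallest that 3 against 3 samples can give (0.133 after Benjamini-Hochberg adjustment over the 4 ratios computed).

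The ratio of IL1A to IL1B counts, chosen after the values were seen, was 0.517, 0.997 and 1.17 in control libraries and 3.19, 2.94 and 2.99 after knockdown. The geometric mean in siADAR1 was 3.59 times that of control (log2 difference 1.84, exact two-sided permutation p = 0.10), and the siADAR1 libraries lay within a narrow span. The ratio of the decoy IL1R2 to the receptor IL1R1 was 0.130, 0.220 and 0.106 in control libraries and 0.426, 0.0323 and 0.0667 after knockdown. These groups overlapped (exact two-sided permutation p = 0.60), and the difference of -0.57 turned to 0.221 without siADAR1 replicate 2.

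**Figure D4:**
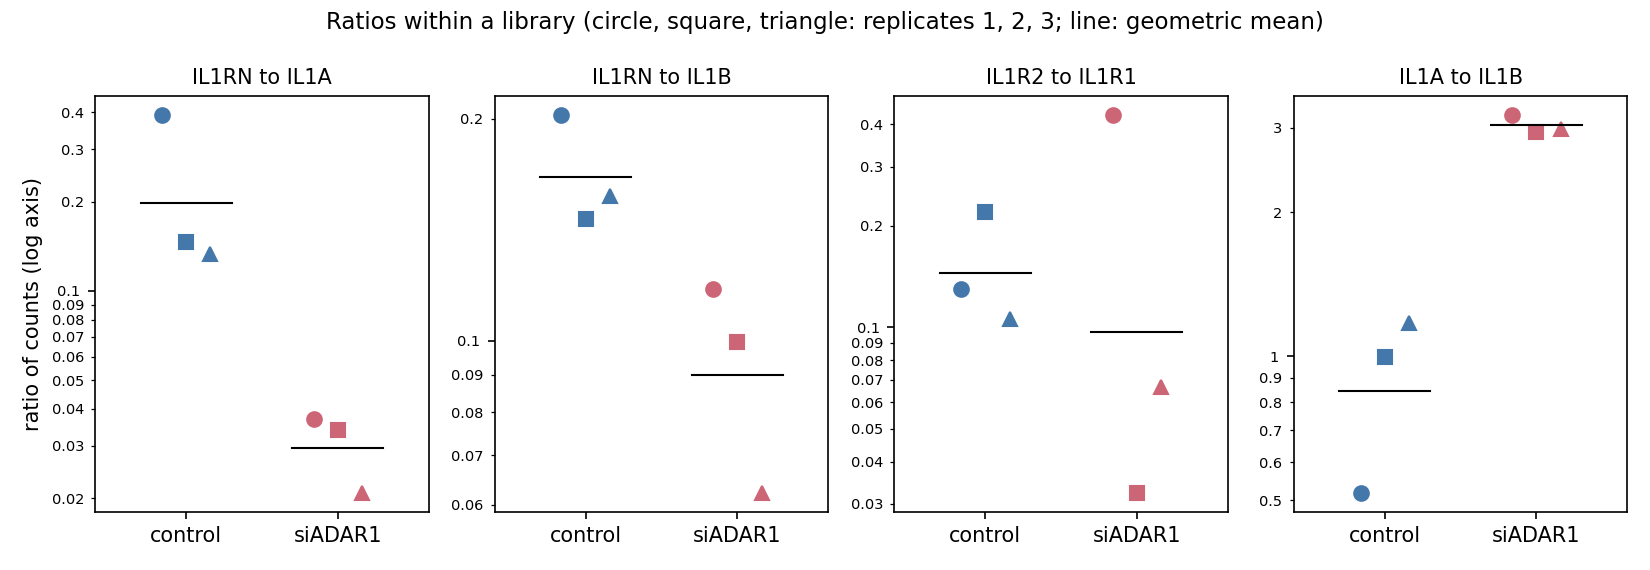
Ratios of counts within each library on a log axis, with circles, squares and triangles for replicates 1, 2 and 3 and lines for the geometric mean over 3 libraries. IL1RN relative to IL1A runs from 0.134 to 0.391 in control and from 0.0208 to 0.0369 in siADAR1, while the IL1R2 to IL1R1 ratios of the groups overlap.

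Of the 10 members, 7 lie in a pair of clusters on chromosome 2. The ligand stretch from IL1A to IL1RN spans 360.1 kb (112773915 to 113134016). It holds 15 annotated genes that lie wholly within it, 9 of them protein-coding, of which 4 were tested. In this stretch IL1A rose, IL1B and IL1RN fell, and IL36RN, an antagonist of IL-36 signalling, did not pass. IL1A and IL1B lie on the minus strand next to each other and moved in opposite directions. The receptor stretch from IL1R2 to IL1RL1 spans 360.2 kb (101991844 to 102352037) and holds 6 genes that lie wholly within it. Of these, 3 were tested and 0 called, IL1R1, IL1RL2 and IL1RL1. IL18R1, which starts inside this stretch and ends beyond it, is not in that count, and it did not pass. Over the 6 libraries, log2 CPM of IL1A and IL1RN had a Pearson correlation of -0.95, and -0.80 after each group's mean was taken out. For IL1A and IL1B the values were -0.80 and -0.06, all given as descriptions of 6 libraries that share their groups. Control replicate 1 was the lowest control library for IL1A (46.5 CPM) and the highest for IL1RN (18.2 CPM). The within-group value of IL1A and IL1RN leans on that library.

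By the same measure, the genes most like IL1RN over the 6 libraries, among 9583 other protein-coding genes averaging 10 CPM or more, were MAP3K6 (r = 0.997), CBX2 (0.996) and CYC1 (0.996). Their log2 fold changes were -0.54, -1.29 and -0.40. The genes most like IL1RAP were ANKRD50 (r = 0.999), TP53BP2 (0.998) and CIR1 (0.998), with log2 fold changes of 0.46, 0.54 and 0.79. All are the largest of many correlations over 6 libraries that share their groups. With 51.0% of all tested genes called, a group difference alone can give a high r. Shared regulation was not tested.

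Other genes of the family were mostly low. Of 12, 6 were tested, 1 rose, 1 fell and 4 were not called, against 51.0% called among all tested genes (26.0% higher, 25.0% lower). The list's median log2 fold change was 0.33 against 0.00469 over all tested genes. IL18BP, which encodes a soluble protein that binds and neutralises IL-18, fell from 6.77 ± 2.08 to 3.13 ± 0.0700 CPM (SD, n = 3 each), a log2 fold change of -1.11 ± 0.25 (SE, edgeR adjusted p = 2.65e-03). SIGIRR, a receptor of the family that dampens signalling, rose from 13.3 ± 1.24 to 18.0 ± 1.63 CPM (log2 fold change 0.43 ± 0.14, SE, edgeR adjusted p = 0.0216). Its call was lost without control replicate 2, without control replicate 3 or without siADAR1 replicate 2, when 0 genes of this list rose. On FPKM with a pseudocount of 1 and no filter on low values, neither IL18BP nor SIGIRR was called. IL18R1, a chain of the IL-18 receptor, stood at 5.30 ± 1.18 and 6.89 ± 1.31 CPM and did not pass.

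Among signalling genes below the receptor, TRAF6 and TAB3 rose and UBE2N fell. Of 21 genes, 20 were tested, 6 rose, 3 fell and 11 were not called, where 51.0% of all tested genes were called, so the list's share lay near that of all genes. The list's median log2 fold change was 0.09. TRAF6, the ubiquitin ligase that relays the receptor signal, rose from 21.1 ± 1.82 to 49.0 ± 5.07 CPM (SD, n = 3 each), a log2 fold change of 1.21 ± 0.12 (SE). TAB3 and TAB2, which bind ubiquitin chains for the kinase TAK1, rose by 1.29 ± 0.11 and 0.80 ± 0.11, the kinase family gene IRAK2 by 1.10 ± 0.14 and the ligase gene PELI1 by 0.69 ± 0.12 (SE). UBE2N, which encodes the conjugating enzyme that works with TRAF6, fell by 0.45 on the log2 scale. Named after their values were seen, IRAK1 and MYD88, the receptor-proximal kinase and adaptor genes, fell by 0.41 and 0.38, and TIFA, a TRAF6-binding adaptor gene, rose by 0.82. The edgeR adjusted p-values of these 9 genes ran from 1.55e-06 to 0.0112.

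Among genes for maturation and release of the ligands, CASP1 and CTSC fell, while SERPINB1 and CARD16 rose. Of 28 genes, 22 were tested, 2 rose, 6 fell and 14 were not called. Of all tested genes 51.0% were called, 26.0% higher and 25.0% lower. The falls in this list lay near the share over all genes. Its rises, 2 of 22, and its share called in either direction lay below those over all genes, a difference that was not tested. The list's median log2 fold change was -0.05. CASP1, the protease for IL-1 beta and IL-18, went from 77.2 ± 9.96 to 42.9 ± 5.55 CPM (SD, n = 3 each), a log2 fold change of -0.85 ± 0.12 (SE). CTSC, a cathepsin gene, had -0.90 ± 0.10, GSDME, a gasdermin gene, -0.48 ± 0.11 and CARD8, an inflammasome sensor gene, -0.54 ± 0.16 (SE). SERPINB1, an inhibitor of neutrophil-type proteases, rose by 0.68 ± 0.13 and CARD16, which encodes a caspase-1-like CARD protein, by 0.60 ± 0.14. GSDMD, the pore protein gene, stood at 87.7 ± 3.89 and 80.9 ± 3.66 CPM and did not pass, and NLRP3, NLRC4, AIM2 and MEFV, inflammasome sensor genes, had too few reads to be tested. With control replicate 1 left out 4 genes of the list rose, and with both libraries numbered 1 left out 5 rose and 7 fell.

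Genes known to be induced by IL-1 in epithelial and stromal cells, many of them also NF-kB targets of other receptors, included BCL3, CXCL1 and CXCL3, which rose, and PTGES, which fell. Of 39 genes, 28 were tested, 15 rose, 6 fell and 7 were not called, beside 26.0% called higher and 25.0% lower over all tested genes. The list's median log2 fold change was 0.36. BCL3, a nuclear IkB family gene, rose from 34.1 ± 1.94 to 167 ± 16.9 CPM (SD, n = 3 each), a log2 fold change of 2.29 ± 0.10 (SE). The chemokine genes CXCL3 and CXCL1 rose by 3.04 ± 0.20 and 2.39 ± 0.20, CSF2, which encodes the growth factor GM-CSF, by 2.29 ± 0.27, the urokinase gene PLAU by 1.81 ± 0.12 and TNFAIP2 by 0.76 ± 0.08 (SE). PTGES, a prostaglandin synthase gene named after its values were seen, had a log2 fold change of -0.74 ± 0.09. Earlier results of these data on NF-kB targets were known when this list was made, and CXCL1, CXCL3, BCL3 and BIRC3 were among those, so the list is no independent support of that direction. Whether IL-1 itself moved these genes was not tested.

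**Figure D5:**
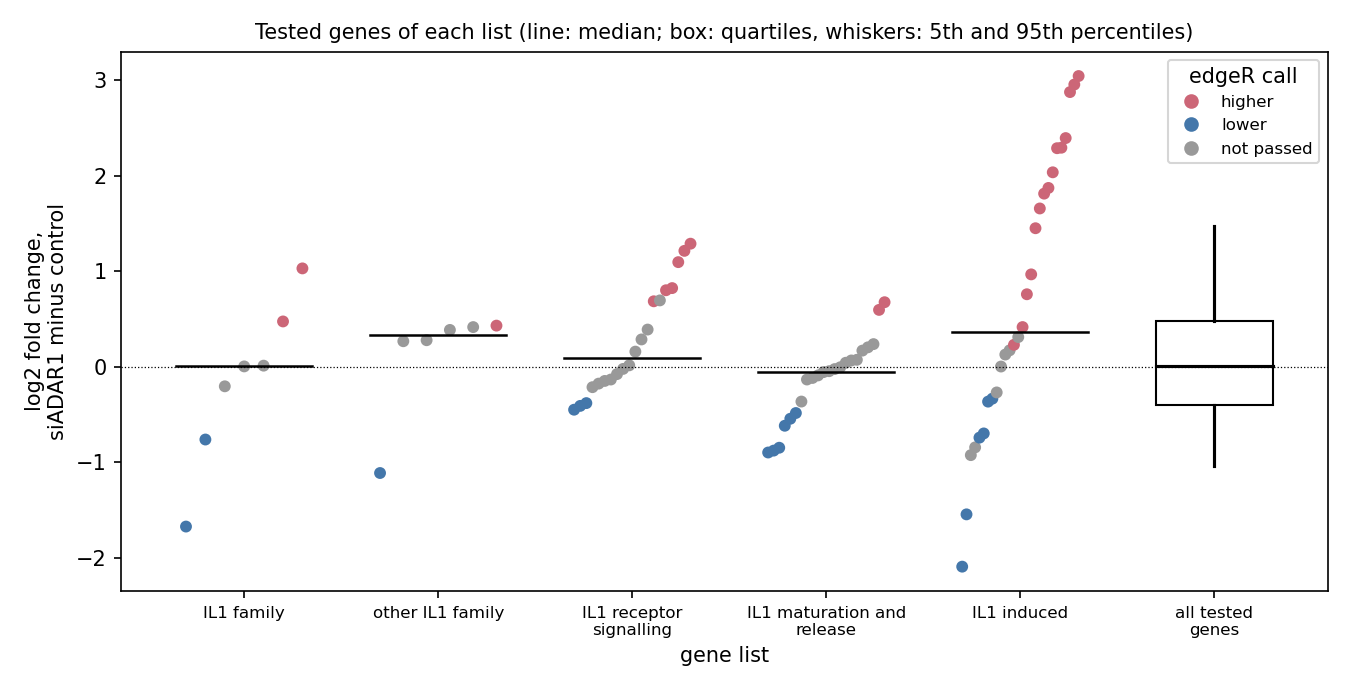
Log2 fold change, siADAR1 minus control, of every tested gene in the family and in 4 lists of related genes, each point a gene (red called higher, blue called lower, grey not passed) and each line the list's median. The box at the right gives the quartiles of all 15294 tested genes, with whiskers to the 5th and 95th percentiles. IL1 induced genes have a median of 0.36, and maturation and release genes a median of -0.05.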

How the data were processed

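RNA-seq of 6 KYSE410 samples was analysed. The deposited values per gene are raw whole-number counts, as header and values show, and the authors' FPKM beside them. The submitters' processing notes list HISAT2 2.0.5, fastp and CASAVA. How reads were counted, and whether by strand, is not given in the sources used here. Members were found by gene name, and members and lists were chosen with earlier results of these data known.

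Counts were tested in R 4.3.3 with edgeR 4.0.16 (TMM scaling, filterByExpr with a minimum count of 10, robust quasi-likelihood test, group as the sole term), with Benjamini-Hochberg adjustment over 15294 genes. SE is the log2 fold change divided by the square root of F. Named were all members, ADAR, up to 6 called genes of each list with the smallest p, and 3 genes most like the ligand and the receptor gene with the smallest p. Other genes are said to be named after their values were seen, or named as untested or not passed. Alternatives were other scalings, DESeq2 1.42.0, limma 3.58.1 (voom, and log2 FPKM with a pseudocount of 0.1 or 1), other filters, a replicate block and left-out libraries. The gene test was run on simulated data with far fewer changed genes than were called here, so that run does not check the calls in these data. Intervals on summed counts and the 3-count floor cover counting error only. Of the squamous markers listed at the start, 1 is not reported here and was left out of their sum.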

Additional observations from a re-analysis of the deposited data

How the results depend on the processing

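IL1A, IL1B, IL1RN and IL1RAP kept their direction and passed in 17 of 17 alternatives, with log2 fold changes of 0.78 to 1.19, -0.85 to -0.55, -1.81 to -1.16 and 0.36 to 0.59. Leaving out 1 library each gave 2 members higher and 2 to 3 lower. IL1R1, which passed in none, turned to -0.0035 with limma-voom and ran from -0.14 to 0.19 when libraries were left out, with -0.050 and -0.14 without control replicates 1 and 2 and -0.10 and -0.063 without siADAR1 replicates 2 and 3. IL1RL1 ran from -0.18 to 0.31, with -0.075 and -0.18 without control replicates 2 and 3 and -0.0047 and -0.12 without siADAR1 replicates 1 and 3. IL1R1 had 41 to 66 counts per library and IL1RL1 17 to 35, and the part of depth in this spread was not tested.

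Rises among maturation and release genes numbered 4 with library totals alone, 5 without both libraries numbered 1 and 2 to 4 with 1 library left out. Rises among other family genes numbered 0 to 2 with 1 library left out. On FPKM with a pseudocount of 1 and no filter, other family genes gave 0 higher and 0 lower, and falls numbered 1 in signalling, 3 in maturation and release and 3 in induced genes. The cause was not tested. With 1 library left out, the log2 difference in ratio ran from -3.01 to -2.24 for IL1RN to IL1A, from -1.08 to -0.62 for IL1RN to IL1B, from 1.49 to 2.08 for IL1A to IL1B and from -1.64 to 0.221 for IL1R2 to IL1R1. Without both libraries numbered 1, these differences were -2.40, -0.94, 1.45 and -1.72 in the same order.

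Replicate numbers were not treated as pairs in the main fit. Deviations from the group means correlated at 0.281, 0.0915 and 0.145 for numbers 1, 2 and 3. Between unlike numbers the correlations ran from -0.214 to 0.118, and control replicate 2 correlated best with siADAR1 replicate 3 (0.118). Whether libraries of the same number share a batch was not tested. With the replicate block, 8582 genes were called against 7804, and 2 members rose and 2 fell, with log2 fold changes of 1.07 for IL1A, -0.77 for IL1B, -1.66 for IL1RN and 0.48 for IL1RAP.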
